A study of Mus musculus with 8 samples.

Results

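CEBPA (CCAAT/enhancer-binding protein alpha) was bound in the presence and absence of wild-type PU.1 at 2574 promoter regions that had no PU.1 peak in either condition. These regions were selected from the 20583 CEBPA peaks of the PU.1+ condition by peak calls alone. A region was kept when it overlapped a CEBPA peak of the PU.1− condition by at least 1 bp and shared no base with a PU.1 peak from either line. Its centre also had to lie within 1000 bp of a transcript start of a protein-coding gene. The members made up 12.5% of the CEBPA peaks of PU.1+ (95% interval 12.1 to 13.0%) and 80.4% of the 3200 constitutive CEBPA promoter peaks, where constitutive means called in both conditions. The other 626 constitutive promoter peaks were bound by PU.1 as well. Membership is a set of calls, so the shared CEBPA call and the missing PU.1 call are not findings about these regions.

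The cells were clonal lines of X18.1.1, a murine AML cell line induced by radiation, that has lost a copy of Pu.1 and keeps only a mutant copy, altered in the region that contacts DNA and shortened in its PEST region. The PU.1− line carried the empty MSCV-puro vector and the PU.1+ line carried PuER, wild-type PU.1 fused to an oestrogen receptor domain that responds to 4-hydroxytamoxifen (OHT), and both were incubated in 100 nM OHT for 2 h. Each line is 1 clone obtained by limiting dilution, and mutant PU.1 is present in both. There were 4 ChIP-Seq libraries, 1 per antibody (PU.1 or CEBPA) and line, with 26119 CEBPA and 5288 PU.1 peaks in PU.1− and 20583 CEBPA and 15683 PU.1 peaks in PU.1+. The deposited lists hold coordinates without heights or read counts, so the depth behind a peak is unknown. With no replicate libraries no difference between the lines was tested, and the 95% intervals for shares (exact Clopper-Pearson) and for differences of shares (Newcombe) cover counting error only.

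CEBPA is a basic leucine zipper factor required for granulocyte formation, and it binds DNA as a dimer at sites built from a pair of half-sites. Members of the CEBP family can also dimerise with ATF factors such as ATF4, the activator of genes for amino acid supply under stress, and such dimers recognise composite sites that join a CEBP half-site to an ATF or CRE half-site. PU.1 is an ETS factor that binds purine-rich sites, mostly at enhancers in myeloid cells. Promoters of widely expressed genes tend to lie in CpG-rich DNA, whereas those of many lineage genes do not.

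The sequences below show the kinds of site found under the members. All are from the RefSeq copy of the mouse genome GRCm38 (mm10), are written 5′ to 3′ on the strand of the named gene, and have the matched site in capitals. The first set holds the CEBP sites TTGCGCAA or TTGCACAA (TTGTGCAA on the opposite strand) that lie nearest to a peak centre. Of the 292 members with either site, 10 had it exactly at the centre, and the 5 of these closest to a transcript start are shown.
Kcnab1 (intron, chr3:65188027-65188056, + strand): tctgttcactaTTGCACAAtatcttacaaa
Commd1 (UTR, chr11:22972967-22972996, - strand): caccggcgtgtTTGCGCAAtgcagcaacca
Dedd2 (intron, chr7:25220013-25220042, - strand): aggttttgctcTTGCGCAAgcgcagcaagg
Cfap221 (intron, chr1:119996774-119996803, - strand): tgtgttgaggaTTGTGCAAcctttgctatt
Lmf1 (intron, chr17:25579807-25579836, + strand): ggacccaaaggTTGTGCAAcagctccaacc

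The next set holds the composite CEBP-ATF site, TGATGCAA (TTGCATCA on the opposite strand), at genes for aminoacyl-tRNA synthetases, the enzymes that charge tRNAs with amino acids. The site occurred at 9 of the 16 members at these genes, and this set was chosen after its values were seen. The amino acids are those the enzymes attach: cysteine for Cars, glutamate and proline for Eprs, phenylalanine for Farsb, glycine for Gars, isoleucine for Iars, serine for Sars, tryptophan for Wars and tyrosine for Yars and the mitochondrial Yars2.
Cars (UTR, chr7:143600045-143600074, - strand): cggcgccgcggTTGCATCAgattctggaag
Eprs (non-coding exon, chr1:185363259-185363288, + strand): acccgcgcgggTTGCATCAgcgcgtgggtg
Farsb (intron, chr1:78488571-78488600, - strand): cggtggctccgTTGCATCAtcagcgcgtgt
Gars (intron, chr6:55038939-55038968, + strand): gctctggcgccTGATGCAAtcgtttgtcta
Iars (UTR, chr13:49682126-49682155, + strand): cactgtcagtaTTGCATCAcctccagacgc
Sars (intron, chr3:108444190-108444219, - strand): ctcgggtagtcTGATGCAAtaggtctgcaa
Wars (intron, chr12:108893505-108893534, - strand): aaagggacagcTGATGCAAtgcaatgacaa
Yars (coding sequence, chr4:129189895-129189924, + strand): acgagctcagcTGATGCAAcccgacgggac
Yars2 (intron, chr16:16305254-16305283, + strand): ctattctagagTGATGCAAgaataaactta

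Longer stretches show how sites were arranged where the peak centre lay upstream of the gene and outside any protein-coding gene body. They are the central 80 bp of peaks at Slc7a11 (the cystine transporter), Herpud1 (an endoplasmic reticulum protein that aids protein degradation), Ddit3 (CHOP, a CEBP family factor of the stress response) and Ngp (neutrophilic granule protein), chosen after their values were seen. Capitals mark TTGCNNAA, TGATGCAA and TGACGCAA matches on either strand, and Slc7a11, Herpud1 and Ddit3 each held 2 such sites.
Slc7a11 (chr3:50443616-50443695, - strand): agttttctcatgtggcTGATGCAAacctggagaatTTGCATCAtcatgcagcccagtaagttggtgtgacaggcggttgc
Herpud1 (chr8:94386270-94386349, + strand): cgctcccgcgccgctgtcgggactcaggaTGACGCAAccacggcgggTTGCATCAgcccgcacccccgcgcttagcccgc
Ddit3 (chr10:127290453-127290532, + strand): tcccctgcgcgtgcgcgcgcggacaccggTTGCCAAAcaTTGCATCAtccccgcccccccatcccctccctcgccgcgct
Ngp (chr9:110419651-110419730, + strand): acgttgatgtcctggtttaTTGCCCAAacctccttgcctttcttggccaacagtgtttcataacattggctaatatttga

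The members were concentrated just upstream of the start. The median centre lay at -36 bp (quartiles -194 and 134 bp, negative meaning upstream), and 61.5% of centres were upstream (59.6 to 63.4%). Of the 2574 centres, 671 (26.1%) lay 1 to 100 bp upstream, against 317 (12.3%) at 0 to 100 bp downstream. The centre was within 100 bp of a start in 38.4% and within 500 bp in 74.9%. By annotation, 37.3% of centres fell in an intron, 33.9% outside protein-coding genes, 18.1% in a UTR, 5.75% in coding sequence and 4.90% in an exon of a non-coding transcript. The centre fell within 1000 bp of starts of more than 1 gene in 10.7% of members, and of starts on both strands in 9.67%.

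**Figure D1:**
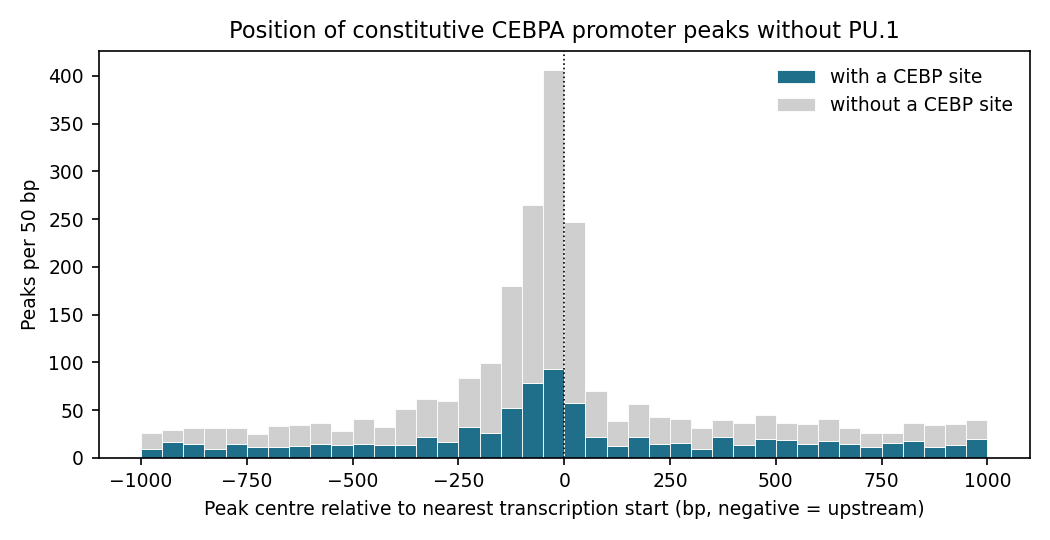
Number of PU.1-free constitutive CEBPA promoter peaks per 50 bp (y axis) by the position of the peak centre relative to the nearest transcript start (x axis, bp). Bars are split into peaks with (blue) and without (grey) a CEBP site in the central 80 bp, and the tallest bars lie just upstream of the start.

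The limit of 1000 bp did not coincide with a gap in the data. The members nearest to it, at Tbp, Zfp626 and Pepd, were all centred 999 bp from a start, and the first PU.1-free constitutive peaks beyond it lay 1001 bp (Rab28), 1002 bp (Chst12) and 1003 bp (Ankhd1) away.

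A CEBP site, TTGCNNAA on either strand, lay in the central 80 bp of 851 members, or 33.1% (31.2 to 34.9%). The share was 2.08% in windows of the same length at the 5′ ends of all protein-coding genes (456 of 21921) and 2.99% in windows 2000 bp to either side of the members. Sites gathered at the peak centre. Matches were counted per strand, so the palindrome TTGCGCAA, present in 102 members, counts as 2. Of the 991 matches, 795 (80.2%) lay within 20 bp of the centre. The share with each palindrome counted once was not computed. The match count was 15.6 per 100 peaks in the 20 bp on the lower-coordinate side of the centre and 0.738 per 100 peaks in the outermost 20 bp on that side. Of the 787 sites whose strand could be told, 47.9% (44.4 to 51.5%) read on the strand of the nearest gene, an interval that includes equal use of both strands. A single match was present in 711 members and 2 matches in 140, and none had 3. Members with a lone TTGCGCAA are among the 140. Among the members with 2 matches, those with a match closest to the centre were at Commd1, Btbd19, Dedd2, Plscr4 and Mpc2. Each of these held TTGCGCAA there, and its count of 2 comes from this palindrome.

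**Figure D2:**
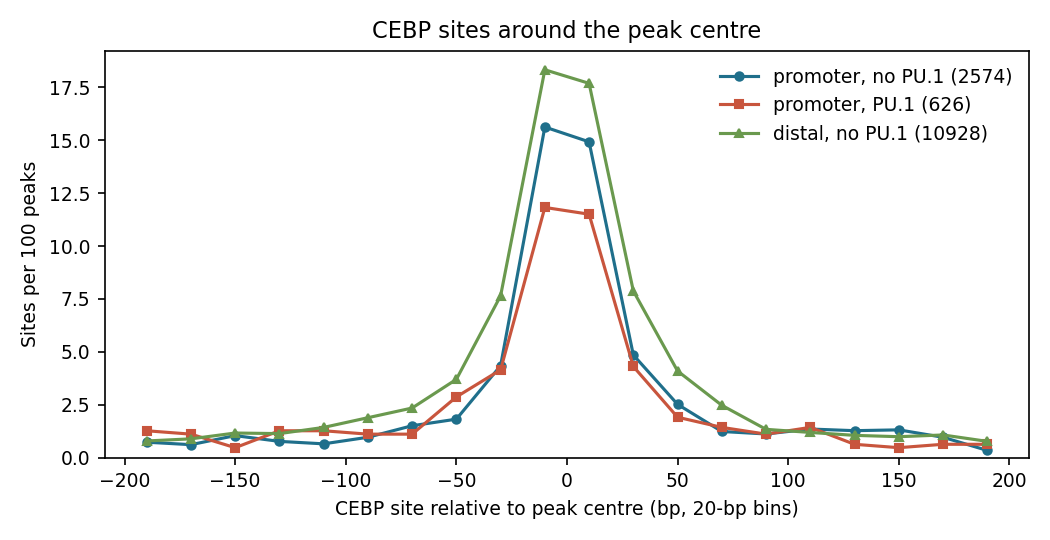
CEBP sites (TTGCNNAA) per 100 peaks (y axis) in 20-bp bins around the peak centre (x axis, bp) for the PU.1-free constitutive promoter peaks (blue), constitutive promoter peaks with PU.1 (red) and constitutive distal peaks without PU.1 (green). All 3 lines peak at the centre, at 15.6, 11.8 and 18.3 matches per 100 peaks. Matches are counted per strand, so TTGCGCAA, in the central 80 bp of 3.96, 1.60 and 3.17% of these peaks, counts as 2.

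CEBP sites were less frequent close to the start. A site was present in 25.3% of the 988 members centred within 100 bp of a start and in 37.9% of the 1586 members further away (difference -12.6 percentage points, -16.1 to -8.93). Upstream, the share went from 22.9% (18.9 to 27.3%) in the first 50 bp to 42.7% (33.6 to 52.2%) between 800 and 1000 bp. Downstream it was 23.7% in the first 50 bp, 48.4% between 600 and 800 bp and 42.5% between 800 and 1000 bp. CpG-rich sequence had the opposite pattern, from 73.6% of members in the first 50 bp upstream to 6.84% between 800 and 1000 bp. Here CpG-rich means a 400-bp peak with an observed/expected CpG ratio of at least 0.6 and at least 50% GC, a definition set after the data were seen. A CEBP site was found in 24.5% of the 1206 CpG-rich members and in 40.6% of the 1368 others (difference -16.2 points, -19.7 to -12.6). The background moved the same way. At the 5′ ends of all protein-coding genes, TTGCNNAA was in 1.10% of CpG-rich and 2.97% of CpG-poor windows. Whether the members differ in CEBP sites beyond this background was not tested. Distance and base composition moved together (56.1% of CpG-rich and 22.8% of CpG-poor members lay within 100 bp of a start), and their separate parts were not tested.

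**Figure D3:**
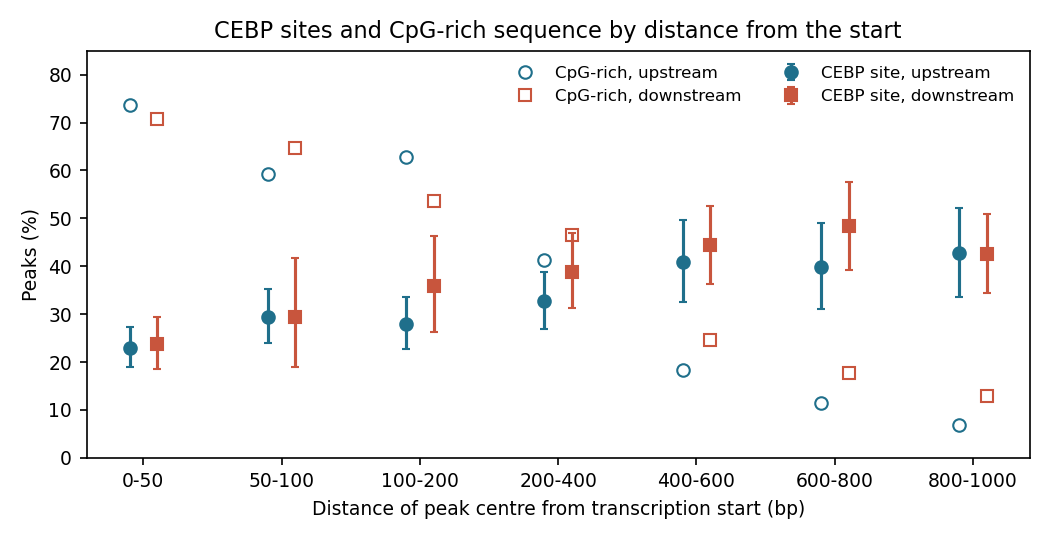
Share of PU.1-free constitutive promoter peaks (y axis, %) with a CEBP site (filled, exact 95% intervals) and with CpG-rich sequence (open), by distance of the centre from the start (x axis, bp), upstream (circles) and downstream (squares). The share with a CEBP site is 22.9% nearest the start and 42.7% at 800 to 1000 bp upstream, while the CpG-rich share goes from 73.6 to 6.84%.

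The form of the CEBP site also differed by location and by base composition. The most common forms among the 851 members with a site were TTGCACAA (190 members, 22.3%), the palindrome TTGCGCAA (102, 11.99%), TTGCTCAA (98, 11.5%) and TTGCCCAA (97, 11.4%). The site contained a CpG in 29.7% of members with a site, against 21.8% of the 4702 constitutive distal peaks without PU.1 that had a site (difference 7.91 points, 4.70 to 11.3). It was 15.3% in the 176 PU.1-bound promoter peaks with a site and 14.3% in the 456 promoters with a site. TTGCGCAA was more frequent among members with a site than among distal peaks with one (11.99 against 7.36%, difference 4.63 points, 2.47 to 7.09), and TTGCACAA was less frequent (22.3 against 28.1%, difference -5.77 points, -8.74 to -2.59). Within the members, 41.2% of the 250 with a site within 100 bp of the start had a CpG in it, against 24.96% of the 601 further out (difference 16.2 points, 9.30 to 23.3). By base composition it was 40.0% of the 295 CpG-rich and 24.3% of the 556 CpG-poor members with a site (difference 15.7 points, 9.13 to 22.3). Of all members 46.9% were CpG-rich, against 1.62% of distal peaks. The separate parts of location and composition were not tested.

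Some members without TTGCNNAA held a composite site. CEBP-ATF (TGATGCAA) was present in 110 members (4.27%) and CEBP-CRE (TGACGCAA), a CEBP half-site joined to a CRE half-site, in 112 (4.35%). At the 5′ ends of all genes the shares were 0.265 and 0.255%. Of the 1723 members without TTGCNNAA (66.9% of all members), 207 (12.01%) held at least 1 of the composite sites. CEBP-ATF was in 5.80% of members without TTGCNNAA and 1.18% of the 851 with it, and CEBP-CRE in 6.27 and 0.470%. A composite site and TTGCNNAA cannot match the same stretch of bases, so a member with 1 site cannot hold both. Part of this difference is therefore fixed by the definitions, and whether the sites avoid each other was not tested. TTGCNNAA or a composite site was in 41.1% of all members, against 2.59% of all promoters. The composite sites differed in position. Members with CEBP-CRE were centred at a median of 55.5 bp from a start (quartiles 19.8 and 192 bp), 84 of the 112 were upstream and 75.9% were CpG-rich. Members with CEBP-ATF were centred at a median of 349 bp (87.8 and 669 bp) and 30.9% were CpG-rich. The corresponding medians were 120 bp for TTGCGCAA and 394.5 bp for TTGCACAA.

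Ranked against the flanking windows, the first 5 sequences of 8 bases in the members were TTGCACAA, TGACGCAA, TTGCGCAA, CCCCGCCC and TGATGCAA. All but the fourth are CEBP or composite sites. CCCCGCCC, the GC box bound by SP and KLF factors, was in 5.63% of members, 0.719% of flanking windows and 9.41% of all promoters. The promoter windows lie at gene 5′ ends, whereas members lie up to 1000 bp away. Its core GGGCGG was in 24.8% of members within 100 bp of a start and in 23.4% of all promoters.

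Read in the other direction, a TTGCGCAA near a gene start was usually accompanied by a member. Background for this count is the 2642 of 21951 protein-coding genes (12%) with a member within 1000 bp of a start. Of the 51 genes with TTGCGCAA within 200 bp of the 5′ end, 41 (80.4%, 66.9 to 90.2%) had a member, and in 39 the site lay inside the member. For TGACGCAA it was 83 of 144 (57.6%, 49.1 to 65.8%), with the site inside the member in 76. The PAR bZIP site TTACGTAA, bound by relatives of CEBP, gave 17 of 34 genes (50%). TTGCNNAA in any form gave 432 of 2582 (16.7%, 15.3 to 18.2%), TTGCACAA 48 of 231 (20.8%, 15.7 to 26.6%) and TGATGCAA 39 of 238 (16.4%, 11.9 to 21.7%), the last an interval that includes the 12% of all genes. Sites of other promoter factors gave like shares, with 18.2% for the ETS1-type site, 17.8% for E2F, 17.7% for NRF1 and 16.4% for the full CRE, TGACGTCA. Base composition moved with these counts. CpG-rich promoters had a member in 18.1% (1887 of 10450) and CpG-poor promoters in 6.57% (755 of 11488), and the part of base composition in the counts by site was not tested.

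**Figure D4:**
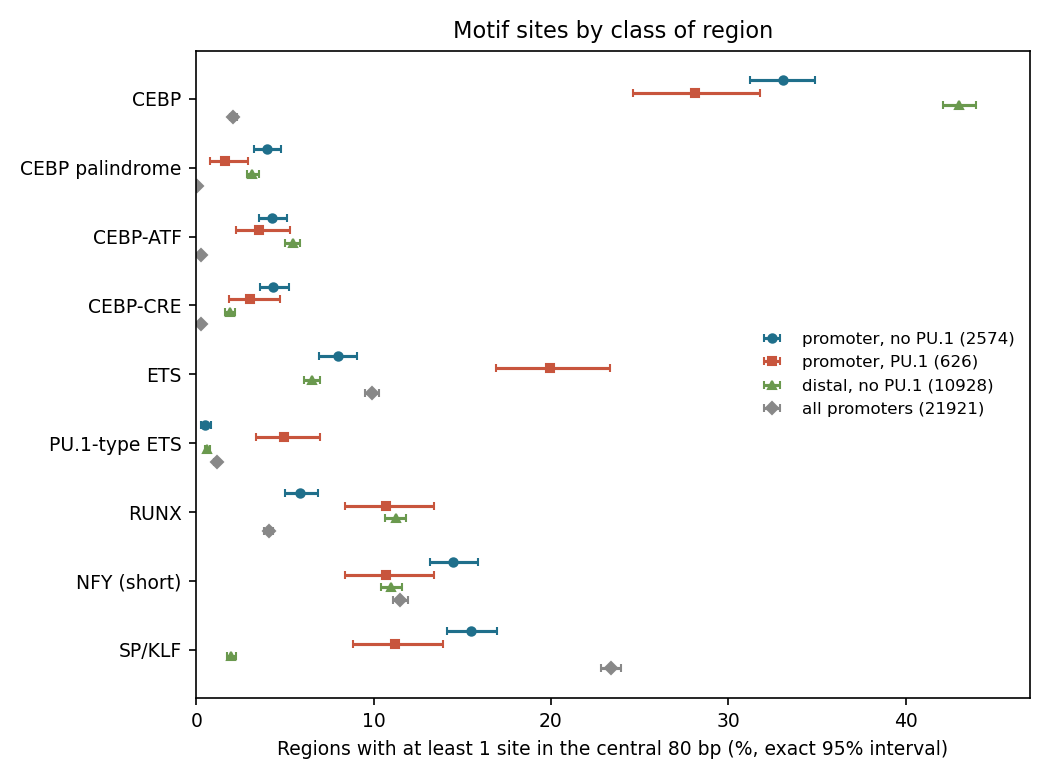
Share of regions (x axis, %, with exact 95% intervals) with at least 1 site in the central 80 bp for 9 motifs (y axis), in PU.1-free constitutive promoter peaks (blue), constitutive promoter peaks with PU.1 (red), constitutive distal peaks without PU.1 (green) and all promoters (grey). The CEBP share is 33.1, 28.1, 43.0 and 2.08% in that order. The ETS share is 7.96, 19.97, 6.52 and 9.92%, and the SP/KLF share 15.5, 11.2, 1.98 and 23.4%.

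Compared with the 10928 constitutive distal CEBPA peaks without PU.1, the members had fewer CEBP, RUNX and TATA-type sites and more SP/KLF and NFY sites. The CEBP share was 33.1 against 43.0% (difference -9.97 points, -11.98 to -7.90), RUNX (TGTGGT) was 5.87 against 11.2% (-5.37 points, -6.41 to -4.24) and the TATA-type site (TATAAA) 1.55 against 2.79% (-1.24 points, -1.76 to -0.609). SP/KLF (GGGCGG) was in 15.5 against 1.98% (13.5 points, 12.1 to 15.0), and NFY (CCAATCNG) in 2.29 against 0.531% (1.76 points, 1.23 to 2.43). The ETS core GGAAGT was slightly more frequent in the members (7.96 against 6.52%, 1.44 points, 0.345 to 2.64). CEBP-CRE went the same way (4.35 against 1.89%, 2.47 points, 1.69 to 3.36), whereas CEBP-ATF was slightly less frequent in the members (4.27 against 5.43%, -1.15 points, -1.99 to -0.208). In all, 22 motifs were compared with the distal peaks, and for 19 the interval of the difference left out 0. The intervals were not adjusted for this number. Median GC content was 55.5% in the members, 45.3% in the distal peaks and 57.5% at all promoters.

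At promoters, the presence of PU.1 went with ETS and RUNX sites. The ETS core GGAAGT was in 7.96% of members, 19.97% of the 626 constitutive CEBPA promoter peaks with PU.1 and 9.92% of all promoters. The difference between members and PU.1-bound promoter peaks was -12 points (-15.5 to -8.86). The longer PU.1-type site GAGGAAGT was in 0.466% of members and 4.95% of PU.1-bound promoter peaks (-4.49 points, -6.49 to -3.00), and the ETS1-type site CCGGAAGT, typical of other ETS factors, in 2.06 and 2.56% (-0.497 points, -2.13 to 0.662). RUNX sites were in 5.87 and 10.7% (-4.84 points, -7.63 to -2.44). The palindrome TTGCGCAA went the other way (3.96 against 1.60%, 2.37 points, 0.879 to 3.47), as did SP/KLF sites (15.5 against 11.2%, 4.32 points, 1.29 to 6.98). Of the 22 motifs, 8 had an interval that left out 0. The CEBP share was higher in the members, 33.1 against 28.1% (4.95 points, 0.883 to 8.80), a difference whose interval included 0 when the whole 400-bp peak was searched. Distance from the start did not differ beyond counting error. Of the members 38.4% lay within 100 bp of a start, and of the PU.1-bound peaks 37.4% (difference 1.00 points, -3.28 to 5.16). Base composition did differ, with 46.9% of members and 35.5% of PU.1-bound peaks CpG-rich (difference 11.4 points, 7.11 to 15.5). Within the members, SP/KLF was in 27.5% of CpG-rich and 4.90% of CpG-poor peaks, and RUNX in 3.15 and 8.26%. The part of base composition in the differences between the classes was not tested. The PU.1 call came from PU.1+ alone in 226 of the PU.1-bound peaks, from PU.1− alone in 220 and from both in 180.

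PU.1-free promoter peaks called in PU.1− only were poorer in CEBP sites than the members. There were 1087 such peaks and 287 called in PU.1+ only, so 65.2% of the 3948 PU.1-free CEBPA promoter peaks were called in both conditions, against 59.9% of the 18229 distal ones (difference 5.25 points, 3.59 to 6.88). A CEBP site was in 19.3% of the PU.1−-only peaks (difference of the members 13.7 points, 10.7 to 16.6) and TTGCGCAA in 0.736 against 3.96% (3.23 points, 2.24 to 4.13). For SP/KLF sites the interval of the difference included 0 (14.2 and 15.5%, difference 1.33 points, -1.25 to 3.76).

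Peak centres of the members were nearly the same in the CEBPA libraries of both lines. The median distance between the centres was 12 bp (quartiles 5 and 24 bp, largest 395 bp), and 97.9% were within 100 bp. The centres were within 20 bp of each other in 78.7% of members with a CEBP site and 66.6% of those without (difference 12.1 points, 8.49 to 15.6). The share was 85.5% for members with CEBP-ATF, 86.6% with CEBP-CRE and 86.3% with TTGCGCAA. In 547 members (21.3%) a CEBP site lay within 20 bp of the centre in both libraries. Counted in the PU.1− peaks that overlap the members, the CEBP share was 33.2%.

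Although overlap was barred by the selection, PU.1 peaks lay near some members. The nearest PU.1 peak of PU.1+ had its centre within 1000 bp of the member's centre in 4.55%, within 10000 bp in 31.5% and within 50000 bp in 70.5%, and that of PU.1− in 3.07, 15.7 and 43.7%. The shares in PU.1+ and PU.1− rest on lists of 15683 and 5288 peaks. The smallest distance was 423 bp in PU.1+, at Gbp5, an interferon-induced GTPase, and 404 bp in PU.1−, at Safb2, a nuclear scaffold protein. For distal CEBPA peaks the share within 10000 bp of a PU.1 peak of PU.1+ was 35.0% (difference of the members -3.51 points, -5.49 to -1.48). Another CEBPA peak of PU.1+ lay within 10000 bp in 43.4% of members and 44.9% of distal peaks, a difference within counting error (-1.55 points, -3.67 to 0.590).

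The members were at starts of 2642 protein-coding genes. Of these, 2445 genes had 1 member, 180 had 2, 16 had 3 and 1 had 4, and 542 genes shared a member with another gene. The gene with 4 was Gcnt2, an enzyme of blood group I antigen synthesis, with members at 3 separate groups of starts. The next by rank and name, each with 3, were Aff1, Atf7ip, Atp13a4 and Dido1. Of 6 genes chosen from those that the study mentions by name, only Cebpa had a member. It was centred at -189 bp from the start (chr7:35118905-35119304), with no TTGCNNAA in the central 80 bp. Spi1, which encodes PU.1, had 1 PU.1-bound constitutive peak and 1 PU.1-free peak called in PU.1− only, and Cd14, Elf1, Evi2a and Lyl1 had no CEBPA promoter peak of these classes. Other genes that the study names were not examined as a set, and Jdp2, in its enrichment results, also had members. Among chromosomes the share of genes with a member ran from 9.93% (chromosome 2) to 15.0% (chromosome 11) for the autosomes, and was 5.80% (55 of 948) for X and 0 of 183 for Y.

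The list of ATF4 and amino acid response genes had the highest share of the 26 lists examined. Of its 29 genes 20 had a member (69.0%, 49.2 to 84.7%), against 12% of all protein-coding genes, and 4 had a PU.1-bound constitutive CEBPA promoter peak, against 2.95% of all genes. The 20 covered transcription factors (Atf3, Atf4, Atf5, Ddit3, Cebpg), enzymes of serine, glycine, one-carbon and asparagine synthesis (Phgdh, Psat1, Psph, Shmt2, Mthfd2, Asns) and amino acid transporters (Slc7a11, Slc3a2, Slc7a1, Slc38a2). They also covered Chac1, which degrades glutathione, Trib3, a pseudokinase that restrains ATF4, and Nupr1, Stc2 and Herpud1. The 23 members at these genes often held composite sites. TGATGCAA was in 10 of 23 (43.5%), against 4.27% of all members, and a composite site of either kind in 11 of 23 (47.8%, 26.8 to 69.4%), against 8.59%. TTGCNNAA was in 3 of the 23. No TTGCNNAA or composite site was in the central 80 bp at Asns, Psat1, Trib3, Mthfd2, Stc2, Atf5 or Cebpg.

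The position of the CEBP-ATF site at these genes was not fixed relative to the start. At Slc7a11 it lay at -42 bp, 1 bp from the peak centre. At Chac1 it lay at -177 bp and at Herpud1 at -118 bp. At Shmt2, Slc7a1 and Phgdh it lay in an intron, at 404, 288 and 768 bp, and at Slc38a2 in an intron at -489 bp from the closest transcript start. These sites are shown because their share was higher in this list than in all members, with the site in capitals.
Chac1 (chr2:119351038-119351067, + strand): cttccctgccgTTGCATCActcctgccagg
Shmt2 (chr10:127521946-127521975, - strand): agctatggagaTGATGCAAccgagcctcag
Slc7a1 (chr5:148399489-148399518, - strand): ggcgtggtgcaTGATGCAAcagcgggaggg
Phgdh (chr3:98339208-98339237, - strand): cgccttttgtcTGATGCAAgaccttggcgc
Psph (chr5:129778815-129778844, - strand): gcctgaatgaaTGATGCAAtctgccacagg
Slc38a2 (chr15:96699166-96699195, - strand): gcccctcggtaTTGCATCAgttcctcccgg
Nupr1 (chr7:126625562-126625591, - strand): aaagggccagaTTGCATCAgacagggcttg

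Genes for aminoacyl-tRNA synthetases had the same kind of site. Of 37 genes 15 had a member (40.5%, 24.8 to 57.9%). TGATGCAA was in 9 of their 16 members (56.3%, 29.9 to 80.2%), against 4.27% of all members, and TTGCNNAA in 2. The median distance of these members from a start was 53 bp. The closest were at Cars (0 bp), Nars2 (1 bp, the mitochondrial asparagine enzyme) and Yars (3 bp). Of the 6 synthetase genes with TGATGCAA within 200 bp of the 5′ end, 4 had a member and the other 2 had a PU.1-bound constitutive CEBPA promoter peak. At Yars the member also lay within 1000 bp of a start of S100pbp.

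ATF, CREB and AP-1 factors, some of which dimerise with or compete with CEBP proteins, had members at 12 of 29 genes (41.4%, 23.5 to 61.1%). These were Atf3, Atf4, Atf5, Atf6, Batf3, Creb5, Crebzf, Crem, Fosb, Fosl1, Jdp2 and Jund. The closest members to a start were those of Crem (12 bp), Atf3 (14 bp) and Jdp2 (-29 bp). TTGCNNAA was in 4 of the 16 members of this list and SP/KLF in 7 (43.8%), against 15.5% of all members. The members of this list lay at a median of 71.5 bp from a start, against 174 bp in all members. SP/KLF was in 24.8% of members within 100 bp of a start, and the part of position in the list's share was not tested. Composite sites were found at Fosb and Jdp2.
Fosb (chr7:19310087-19310116, - strand, at -50 bp): ggagttgcgggTGACGCAAgcgcgggggcg
Jdp2 (chr12:85599372-85599401, + strand, at -30 bp): atagccggggcTGATGCAAcccgtcccgcc
Of the 6 CEBP family genes, Cebpa, Cebpg and Ddit3 had a member. Cebpg, the partner that lacks an activation domain, had 2, and neither held a TTGCNNAA.

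Genes of endoplasmic reticulum stress had a member at 7 of 21 (33.3%, 14.6 to 57.0%). The closest to a start were at Xbp1 (-22 bp), Atf6 (-47 bp) and Canx (-49 bp, with 2 CEBP matches counted per strand). TGACGCAA was in 4 of the 9 members of this list (44.4%), against 4.35% of all members, and these belonged to Edem1, Herpud1 and Xbp1. Herpud1 is also in the ATF4 list.

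Granule protein genes are switched on as granulocytes form. Of 25 such genes 7 had a member (28.0%, 12.1 to 49.4%), which were Camp, Ctsg, Hp, Lcn2, Lyz2, Ngp and S100a9. A PU.1-bound constitutive peak was at 3 of the 25, against 2.95% of all genes. The 7 members were centred at 2 bp (Ctsg), -12 bp (Camp), 16 bp (Lyz2), -50 bp (Hp), -57 bp (Ngp), -88 bp (S100a9) and -135 bp (Lcn2). A TTGCNNAA was at 2 of them, Lcn2 and Ngp, and CpG content was low, with observed/expected ratios between 0.0984 (Lcn2) and 0.371 (Ctsg) against a median of 0.605 in all members. None of the 7 had a composite site in the central 80 bp, a count whose interval (0 to 41.0%) includes the 8.59% of all members. Of 22 myeloid receptor genes 4 had a member (18.2%, 5.19 to 40.3%), an interval that includes the 12% of all genes, and 5 had a PU.1-bound constitutive peak, against 2.95% of all genes. The 4 with a member were Csf3r, the G-CSF receptor, centred at -79 bp, Tnfrsf1a, at 6 bp, and Tnfrsf1b and Il1r1, each with a CEBP site (at Il1r1 as the opposite-strand form of TTGCTTAA).
Lcn2 (coding sequence, chr2:32387937-32387966, - strand): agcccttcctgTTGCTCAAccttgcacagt
Tnfrsf1b (intron, chr4:145246417-145246446, - strand): actgttcatccTTGCGAAAtcccttctgtc
Il1r1 (intron, chr1:40265673-40265702, + strand): atctagaggtaTTAAGCAAtcactgtttct

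Haematopoietic transcription factors had a member at 17 of 64 genes (26.6%, 16.3 to 39.1%), and those closest to a start were at Mef2c (-9 bp), Myb (36 bp) and Bcl11a (59 bp). Mef2c had 3 members, each with a CEBP site, and the member at Myb had 2 matches counted per strand. Their members lay further from a start than most, at a median of 409 bp against 174 bp in all members. Of the 64 genes, 8 had a PU.1-bound constitutive peak, against 2.95% of all genes.

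Apart from the aminoacyl-tRNA synthetases at 40.5%, lists of widely expressed genes had shares from 7.41 to 30%. The highest of these were Mediator subunits (9 of 30, 30%, 14.7 to 49.4%, closest at Med9, Med21 and Med30), sterol and fatty acid synthesis (8 of 27, 29.6%, closest at Cyp51, Srebf1 and Dhcr7) and autophagy (8 of 31, 25.8%, closest at Atg7, Atg9a and Atg16l1). Splicing factors were at 20.3% (Srsf11, Sf3b2, Srsf7), translation initiation factors at 20% (Eif2s2, Eif4a1, Eif1) and the respiratory chain at 20% (Uqcrfs1, Uqcr10, Ndufc2). Vacuolar sorting and V-ATPase genes were at 19.7% (Atp6v1a, Vps29, Atp6v0a1), cytosolic ribosomal proteins at 19.2% (Rpl9, Rpl27, Rps23), core histones at 17.8% (Hist1h4h, Hist1h2ad, Hist1h2bb) and the proteasome at 17.5% (Psmb2, Psmb1, Psma1). The intervals of all of these except the Mediator, sterol and respiratory chain lists included 12%. The Mediator, sterol (13.8 to 50.2%) and respiratory chain (12.1 to 30.1%) intervals did include 18.1%, the share of CpG-rich promoters with a member. The part of base composition in the shares of these lists was not tested.

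The remaining lists were near or below the background. Chaperonins and heat shock proteins were at 15.9% (Dnajc7, Dnajb9, Dnajb6), mitochondrial ribosomal proteins at 15.4% (Mrpl12, Mrpl30, Mrps22), cell cycle genes at 14.6% (Ccnd3, Mcm4, Cdkn1b), Rab GTPases at 13.0% (Rab44, Rab34, Rab7), Zfp zinc finger genes at 10.9% (Zfp110, Zfp420, Zfp1) and RNA polymerase subunits at 7.41% (Polr2m, Polr3e). Olfactory receptor genes had a member in 3 of 1134 (0.265%, 0.0546 to 0.771%), at Olfr229, Olfr266 and Olfr71. None of the 53 keratin genes had one (exact upper limit 6.72%). At translation initiation factors TGATGCAA was in 4 of 13 members (30.8%), against 4.27% of all members, at Eif1, Eif2s2, Eif3c and Eif4g2.

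**Figure D5:**
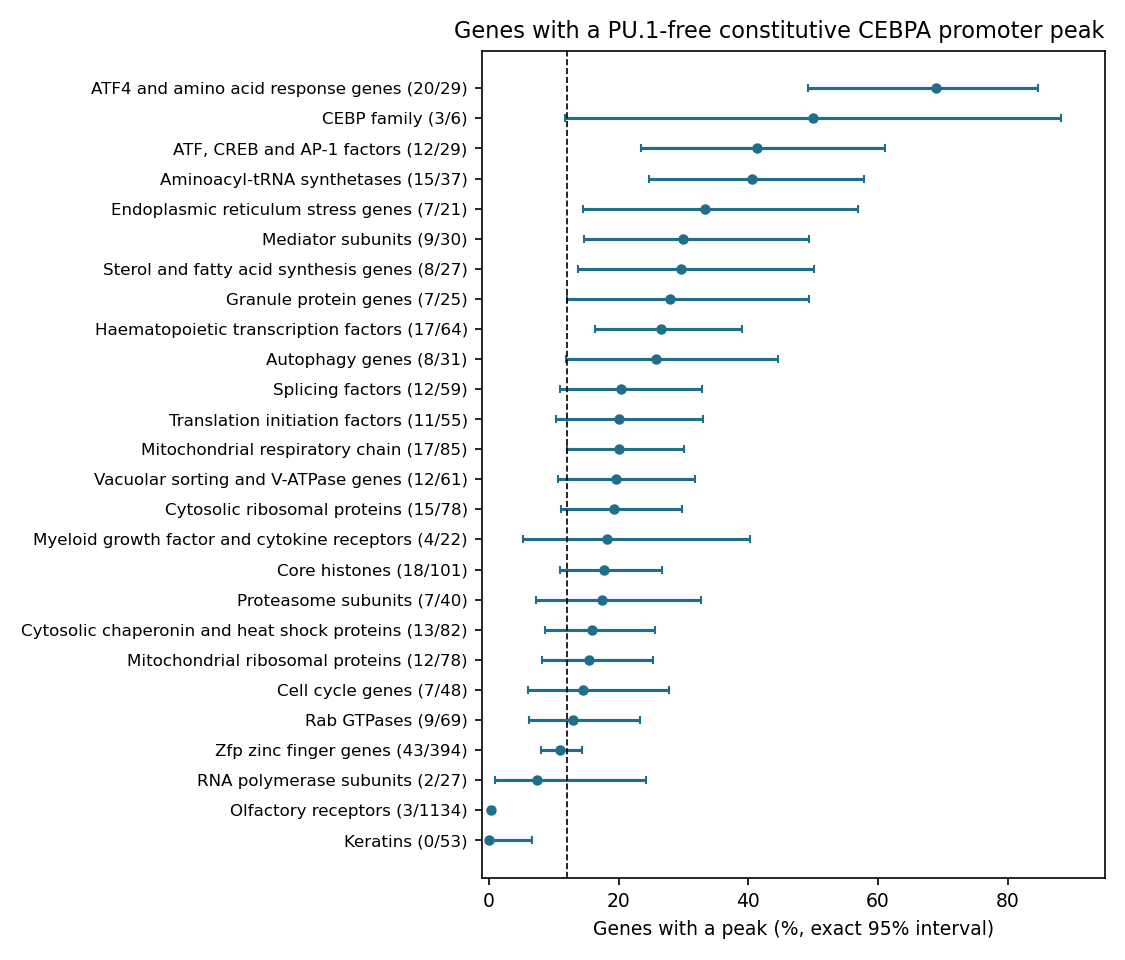
Share of the genes in each of 26 lists with a PU.1-free constitutive CEBPA promoter peak (x axis, %, exact 95% intervals), with the count and the size of the list in brackets and a dashed line at 12%, the share of all protein-coding genes. ATF4 and amino acid response genes are highest at 69.0%, and olfactory receptor and keratin genes lie near 0.

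The lists share genes (Atf3, Atf4, Atf5 and Ddit3 are in more than 1), and head-to-head genes share a peak, so the counts are not independent of each other. Several lists, among them Rab GTPases, core histones and translation initiation factors, were drawn up by patterns of gene names. They can therefore hold genes outside the named family, such as Rab5if and the linker histone gene Hist1h1c. No expression data were used, so the counts show the position of peaks and not the activity of these genes.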

How the data were processed

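PU.1 and CEBPA ChIP-Seq peak lists of the PU.1− (empty vector) and PU.1+ (PuER) lines were analysed, 1 library each. Per the submitters' processing notes, Bowtie2 2.0.6, MACS2 2.0.10 and the mm10 build were used by the authors, who deposited peak coordinates as start and end positions per library, all 400 bp wide and without scores. The calling threshold is not given in the sources used here, and read depth is unknown, so sites below the threshold cannot be counted.

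Peaks were compared by overlap of at least 1 bp. Starts were those of all transcripts of the 21951 protein-coding genes of GENCODE M21 on GRCm38, the build of the lists. Motifs were exact matches on both strands in the central 80 bp: CEBP (TTGCNNAA, including TTGCGCAA and TTGCACAA), CEBP-ATF (TGATGCAA), CEBP-CRE (TGACGCAA), CRE (TGACGTCA), PAR bZIP (TTACGTAA), AP-1 (TGANTCA), ETS (GGAAGT), PU.1-type (GAGGAAGT), ETS1-type (CCGGAAGT), NFY (CCAATCNG, and CCAAT as its short form), SP/KLF (GGGCGG), NRF1 (GCATGCGC), E-box (CACGTG), YY1 (AAGATGGC), ZNF143 (ACTACAA), E2F (TTCCCGCC), the TATA-type core promoter site (TATAAA), RUNX (TGTGGT) and that of GATA factors (AGATAA). The longer sites contain the shorter ones of their kind. Sequences of 8 bases were ranked by the excess of members over flanking windows, each flank given the weight that equalises the number of windows, scaled by the root of their summed count with 1 added.

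The members, motifs and gene lists were chosen with earlier results of these data known. The genes named are 6 mentioned in the study (Cd14, Elf1, Evi2a, Spi1, Lyl1 and Cebpa, of which Lyl1 belongs to its reporter assay and Cebpa encodes the ChIP target), all genes with a member in the CEBP, ATF/CREB/AP-1, ATF4, granule and receptor lists, up to 3 closest to a start in each other list, the 5 with most members, the 5 members with most CEBP matches counted per strand, the 5 with TTGCGCAA or TTGCACAA nearest the centre and those at the 1000-bp limit. Genes at the nearest PU.1 peaks and with TGATGCAA or TGACGCAA sites in other lists, and the sequences of synthetase genes and the longer stretches, were chosen after their values were seen. H3K27Ac and IgG libraries were not used here. Exact Clopper-Pearson and Newcombe 95% intervals were used, with no p-values. Overlap classes and planted sites in simulated data were recovered at 100%. The planted sites were TTGCAAAA and TTGCCCAA, on either strand, in random A and C bases where TTGCNNAA cannot arise. False matches and the palindrome TTGCGCAA were therefore not tried. Tools were Python 3.11.15, numpy 2.4.6, scipy 1.17.1, pysam 0.24.0, samtools 1.23.1 and matplotlib 3.10.9. The CpG-rich definition was set after the data were seen. Alternative overlap rules, promoter limits, start sets and motif windows were tried.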

Additional observations from a re-analysis of the deposited data

How the results depend on the processing

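The number of members ranged from 1768 (5′ end of each gene only) to 3817 (limit of 2500 bp) over the 9 alternatives and stayed within 1.5 times the main count. So did the number of genes with a member, 2040 at a limit of 500 bp and 3696 at 2500 bp. The share of members with a CEBP site was 39.7% in the central 200 bp, 44.7% in the whole peak, 29.5% at a limit of 500 bp, 36.1% at 2500 bp and 74.0% when TTGCNNNA and TTNCNNAA were also allowed, a pattern that 22.0% of flanking windows and 15.5% of all promoters also held. The share was 33.0 to 33.3% with an overlap of at least 50%, counted in the PU.1− peaks, or with no PU.1 centre within 1000 bp. The lower CEBP share than in distal peaks kept its direction in both wider windows (-14.2 points in each). The higher share than in PU.1-bound promoter peaks was 4.36 points in 200 bp and 3.66 points in the whole peak, where the interval (-0.678 to 7.91) included 0. Shares of the other motifs rose with the window, since more sequence was searched. The share of members centred upstream was 60.2% with protein-coding transcripts and 56.7% with gene 5′ ends only. Depth is unknown, so sites below the calling threshold cannot be counted. No paired analysis was possible because there was 1 library per antibody and line and no result came from a test.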
